A study of Mus musculus with 10 samples.

Results

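Imprinted genes are expressed from only 1 of the 2 parental alleles, the choice being set by DNA methylation that differs between egg and sperm. Many of them control growth before birth, several were found through their high levels in the placenta, and most are turned down in adult organs. The 10 imprinted growth genes described here were taken by their symbols, *H19*, *Peg3*, *Mest*, *Dlk1*, *Meg3*, *Plagl1*, *Cdkn1c*, *Grb10*, *Peg10* and *Zim1*, from a table of 29268 genes measured in the mouse uterus. All 10 were listed in the table. *H19*, *Meg3*, *Cdkn1c*, *Grb10* and *Zim1* are known to be expressed mainly from the maternal allele, *Grb10* with a paternal exception in neurons, and *Dlk1*, *Plagl1*, *Peg3*, *Mest* and *Peg10* from the paternal allele.

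The uterus of 5 HSD17B1TG and 5 WT mice was analyzed by RNA sequencing when the mice were 4 months old, 1 library being made from each. HSD17B1TG mice carry human HSD17B1 cDNA, the enzyme that converts estrone to estradiol, driven in all tissues by the chicken beta actin promoter with a CMV enhancer. Both genotypes were on the FVB/N background, which is inbred, so that the reads of the maternal and the paternal allele could not be told apart and all values are sums over both alleles. HSD17B1TG females do not cycle, and the cycle phase of each WT mouse is not given in the labels, so that the transgene and the lack of cycling cannot be told apart here. The human transgene was not analysed here, and the genotype labels were not checked by it. The mice are called TG1 to TG5 and WT1 to WT5, and these numbers pair no mice. Levels are given in FPKM, fragments per kilobase of gene length scaled to the sequencing depth.

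The libraries held 14817228 to 23271988 counts each, and 3 counts corresponded to 0.129 to 0.202 CPM (counts scaled to the total of the mouse). Differences between the genotypes were tested on the raw counts with edgeR's quasi-likelihood test over 16993 genes, with Benjamini-Hochberg adjustment. A gene was called where the adjusted p was under 0.05, the fold change over 2 and the mean FPKM of either group over 1. By this rule 367 genes, or 2.16% of those tested, were called up in HSD17B1TG and 354, or 2.08%, were called down. At an unadjusted p under 0.05 were 26.1% of the genes tested, which is the share to set beside the counts at that limit given for lists of genes. The 10 most abundant genes took 6.97% to 12.5% of the counts in HSD17B1TG and 5.18% to 6.15% in WT, and the groups did not overlap (two-sided exact permutation test, p = 0.00794). Mitochondrial genes took 1.94% to 7.57% of the counts in HSD17B1TG and 2.58% to 3.37% in WT. As bulk tissue was measured, fewer cells of a type and less RNA per cell cannot be told apart.

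Of the 10 imprinted growth genes, 8 passed the filter on low counts, 1 was called up and 1 was called down. The gene called down was *Grb10*, an adaptor protein that binds the insulin and IGF1 receptors and restrains their signaling. The gene called up was *Peg10*, a gene derived from a retrotransposon that the placenta needs. The remaining 6 tested genes had log2 fold changes between -1.65 and -0.44 and were not called. The median log2 fold change of the 8 tested genes was -0.56, whereas it was 0.00 over all 16993 genes tested.

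**Figure D1:**
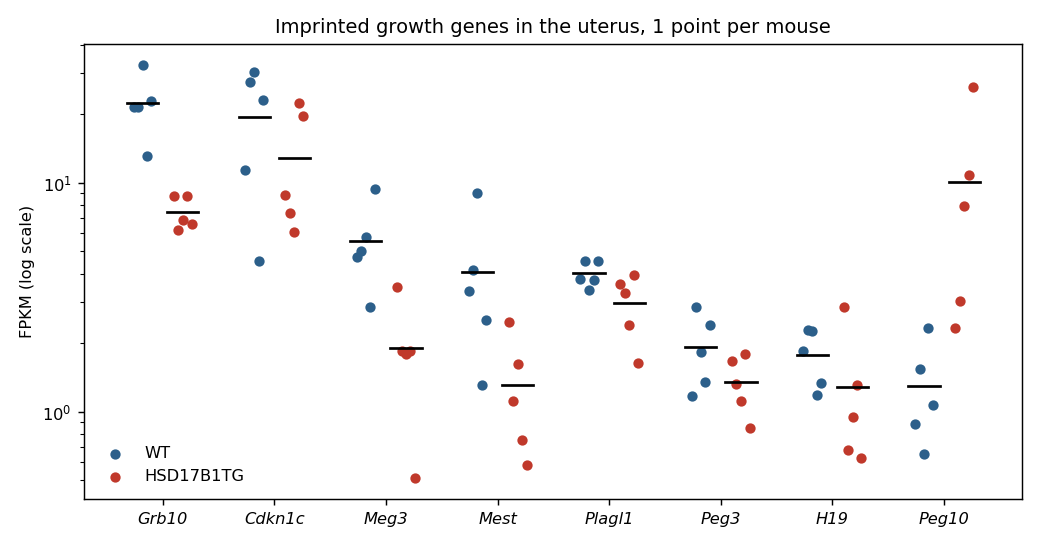
FPKM of the 8 imprinted growth genes that passed the filter on low counts, on a log axis, in WT (blue) and HSD17B1TG (red), with 1 point per mouse and a black bar at the group mean. The 5 HSD17B1TG mice lie between 6.20 and 8.71 FPKM of Grb10, below all WT mice, and 4 of them lie above all WT mice in Peg10.

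*Grb10* (ENSMUSG00000020176) lies on the minus strand of chr11:11930508-12038683 (GRCm38), and no other annotated gene overlaps it. Its level in the HSD17B1TG mice TG1 to TG5 was 8.69, 6.20, 6.84, 8.71 and 6.62 FPKM. In the WT mice WT1 to WT5 it was 21.4, 21.3, 32.7, 13.1 and 22.7 FPKM. Every HSD17B1TG mouse was below every WT mouse, the nearest pair being TG4 and WT4. *Grb10* was the only one of the 10 genes whose groups did not overlap, while 2.65% of all genes tested were lower in every HSD17B1TG mouse and 4.04% were higher in every one. The HSD17B1TG mean of 7.41 ± 1.20 FPKM compared with a WT mean of 22.3 ± 6.98 FPKM (SD, n = 5 each). The log2 fold change was -1.59 with an SE of 0.23 (edgeR, adjusted p = 0.0153). With any 1 mouse removed, *Grb10* was still called in all 10 fits, with adjusted p between 0.00161 and 0.0450. The level varied little among the HSD17B1TG mice, in which the coefficient of variation was 16.2%, the lowest among the 10 genes in that genotype, compared with 31.4% in WT.

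RefSeq lists a pair of start sites for *Grb10* that differ strongly in CpG content, and the 250 bases upstream of each are shown because the gene-level counts add up the transcripts from both. CpG dinucleotides, at which imprinting marks are set, are in capitals. The first, chr11:12037421-12037670 on the minus strand, holds 40 CpG, and its 300-base window (250 bases before and 50 after the start) holds more CpG than 98.1% of the 32851 RefSeq windows of the mouse. The second, chr11:12027972-12028221, holds 8 CpG.
Grb10 first start: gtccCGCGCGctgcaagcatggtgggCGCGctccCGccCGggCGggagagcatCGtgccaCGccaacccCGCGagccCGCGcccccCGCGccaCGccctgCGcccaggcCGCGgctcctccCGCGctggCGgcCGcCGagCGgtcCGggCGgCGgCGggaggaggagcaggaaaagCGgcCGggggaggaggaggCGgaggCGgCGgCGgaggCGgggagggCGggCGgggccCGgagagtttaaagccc
Grb10 second start: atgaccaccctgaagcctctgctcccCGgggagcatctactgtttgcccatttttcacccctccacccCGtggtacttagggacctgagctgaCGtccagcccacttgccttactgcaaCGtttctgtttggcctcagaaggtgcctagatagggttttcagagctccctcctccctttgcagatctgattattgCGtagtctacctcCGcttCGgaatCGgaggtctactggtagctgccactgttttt
How much of the *Grb10* level came from either start was not measured.

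*Peg10* (ENSMUSG00000092035) lies on the plus strand of chr6:4747306-4760517, with no overlapping gene. Its level in TG1 to TG5 was 2.31, 3.03, 7.88, 10.8 and 26.1 FPKM. In WT1 to WT5 it was 0.885, 1.54, 0.651, 2.32 and 1.07 FPKM. TG2 to TG5 were above all WT mice, and TG1 was level with WT4, the highest WT mouse. The HSD17B1TG mean of 10.03 ± 9.65 FPKM compared with a WT mean of 1.29 ± 0.659 FPKM (SD, n = 5 each). The log2 fold change was 2.95 with an SE of 0.66 (edgeR, adjusted p = 0.0338). The spread within HSD17B1TG was wide, with the highest mouse, TG5, at 11.3 times the lowest. TG5 also had the highest mitochondrial share of counts (7.57%), the highest share taken by the 10 most abundant genes (12.5%) and the fewest genes with a count (20507) of the 10 mice, and the part of this in its *Peg10* level was not tested. Without TG5 the log2 fold change of *Peg10* was 2.21 with an SE of 0.52 (edgeR, adjusted p = 0.0684). Removing 1 mouse at a time, the call was kept in 3 fits, those without TG1, TG3 or WT4, and was lost in the other 7, with adjusted p over all 10 between 0.0168 and 0.0823. Over all genes, the 7 fits that lost it called 38 to 100 genes up. The 3 fits that kept it called 753, 364 and 888 up. The call of *Peg10* was also lost with limma voom (adjusted p = 0.0787). *Peg10* was higher in HSD17B1TG in all 17 alternative fits, with a log2 fold change of 2.21 to 3.27 when 1 mouse was left out.

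**Figure D2:**
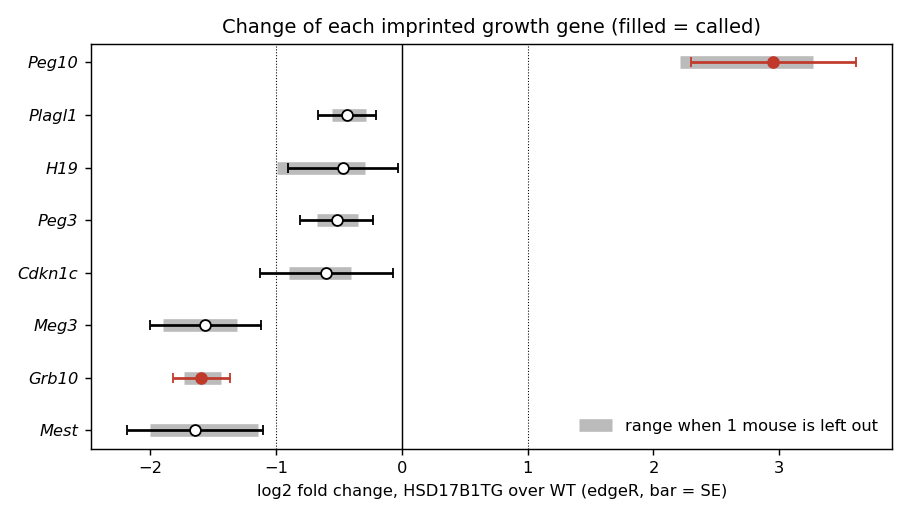
Log2 fold change between HSD17B1TG and WT (edgeR, horizontal axis) of each of the 8 tested genes, with the SE as a bar, the range over the 10 fits that left out 1 mouse in grey, and called genes filled. Peg10 at 2.95 is the only one to the right of 0, and the grey range of none of the 8 genes crosses 0.

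The start of *Peg10* lies 98 bases from the start of *Sgce*, which is transcribed in the opposite direction, encodes epsilon-sarcoglycan of muscle membranes and is likewise known to be expressed from the paternal allele. *Sgce* was at 4.13 to 7.07 FPKM in HSD17B1TG and at 2.85 to 4.84 in WT, with 4 of 5 HSD17B1TG mice above all WT mice. Its log2 fold change was 0.53 with an SE of 0.19, and it was not called (edgeR, adjusted p = 0.109). The ratio of *Peg10* to *Sgce* within a mouse was 0.327, 0.592, 1.91, 1.75 and 4.53 in TG1 to TG5. It was 0.310, 0.424, 0.193, 0.479 and 0.222 in WT1 to WT5. Thus *Peg10* was below *Sgce* in all WT mice and in TG1 and TG2, and above it in TG3, TG4 and TG5. This ratio was compared after the values of both genes were seen. On the log2 scale with 0.1 FPKM added it was 1.93 higher in HSD17B1TG than in WT (two-sided exact permutation test, n = 5 per group, p = 0.0317). Without WT1, WT3 or WT5 this exact permutation p was 0.0635 to 0.0714.

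Across the 10 mice the levels of *Peg10* and *Sgce*, as log2(FPKM + 1), had a Pearson r of 0.55 (permutation p = 0.104, adjusted 0.156 over 3 pairs) and a Spearman rho of 0.68 (permutation p = 0.0353, adjusted 0.106). Without TG4 and TG5, the mice farthest from the *Peg10* median, r was 0.36. Without TG1 alone it was 0.72 (unadjusted permutation p = 0.0306). The r of the deviations from the genotype means was 0.04. That value pools both genotypes and has no p, and r within WT or within HSD17B1TG alone was not calculated. The other genes tested around *Peg10* had log2 fold changes of 0.28 (*Casd1*), 0.39 (*Ppp1r9a*), 0.90 (*Pon3*), 0.00 (*Pon2*), -1.02 (*Asb4*) and -1.35 (*Tfpi2*), none of them called by edgeR in the fit of all mice. DESeq2 called *Tfpi2* down (adjusted p = 0.0357), and edgeR without WT4 called *Tfpi2* down and *Pon3* up.

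*Meg3* and *Dlk1* are neighbours on chromosome 12 that are expressed from opposite alleles. *Meg3* (ENSMUSG00000021268, chr12:109541001-109571726, plus strand) makes a long non-coding RNA from the maternal allele, and *Dlk1* (ENSMUSG00000040856, chr12:109452823-109463336, plus strand) makes a membrane protein of the Notch ligand family that holds back the differentiation of precursor cells. *Meg3* was at 3.49, 1.84, 1.77, 1.84 and 0.511 FPKM in TG1 to TG5. It was at 4.75, 5.04, 5.79, 2.87 and 9.36 FPKM in WT1 to WT5. Of the HSD17B1TG mice 4 were below all WT mice, while TG1 was above WT4. The log2 fold change was -1.56 with an SE of 0.44, which missed the threshold (edgeR, adjusted p = 0.0581). In a two-sided exact permutation test of log2(FPKM + 1), p was 0.0159, unadjusted, as one of 10 genes tested. *Meg3* was called without TG1 and without WT4, where the adjusted p was lower than in the fit of all mice, and with DESeq2 (adjusted p = 0.00742).

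The *Dlk1* mRNA had 0 to 3 counts in every mouse, with 5 counts over all HSD17B1TG mice and 5 over all WT mice. WT4 alone reached the floor of 3 counts used here, both groups were at or under it, and no fold change is given. The planned ratio of *Meg3* to *Dlk1* could not be formed, since *Dlk1* had under 3 counts in 9 of 10 mice.

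*Rian* and *Mirg*, 2 further maternal non-coding RNAs downstream of *Meg3* on the same strand, which carry clusters of small RNAs, had lower values in HSD17B1TG as well. *Rian* was called down and was the only gene called by edgeR among 53 tested imprinted genes outside the 10. DESeq2 also called *Slc22a18* up and *Begain*, *Tfpi2* and *Atp10a* down. *Rian* was at 2.11, 1.09, 1.09, 0.701 and 0.448 FPKM in TG1 to TG5 and at 2.92, 4.64, 4.33, 2.11 and 5.76 FPKM in WT1 to WT5. TG1 was just above WT4, and the other HSD17B1TG mice were below all WT mice. The log2 fold change of *Rian* was -1.87 with an SE of 0.41 (edgeR, adjusted p = 0.0322), and with 1 mouse removed the call was kept only without TG1, TG3 or WT4 and lost in 7 of 10 fits (adjusted p up to 0.0783). Those 7 fits called 27 to 145 of all genes down, and the fits that kept it called 575, 528 and 651. *Mirg*, named after its values were seen, did not exceed 0.228 FPKM in HSD17B1TG and was at 0.305 to 0.944 in WT, with a log2 fold change of -2.13 and an SE of 0.70 (edgeR, adjusted p = 0.0856). The mean of *Mirg* was under the FPKM threshold of a call in both groups.

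The levels of *Meg3* and *Rian* followed each other over the 10 mice, with a Pearson r of 0.96 (permutation p = 1e-05, the smallest that 100000 resamples can give, adjusted 2e-05 over 2 pairs) and a Spearman rho of 0.98 (permutation p = 4e-05, adjusted 8e-05). This pair and the pair of *Meg3* and *Mirg* (r = 0.95, rho = 0.93, permutation p = 6e-05 and 0.00035, both the same after adjustment) were chosen after values had been seen. Without TG5 and WT5, the mice farthest from the *Meg3* median, r was 0.96 and 0.91. Within the genotypes the r of the deviations from the genotype means was 0.91 and 0.86. The genes at the ends of the cluster had log2 fold changes of -1.46 (*Begain*) and 1.13 (*Dio3*), and neither was called by edgeR in the fit of all mice. DESeq2 called *Begain* down (adjusted p = 0.0472), as did edgeR without TG1 and without WT4.

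**Figure D3:**
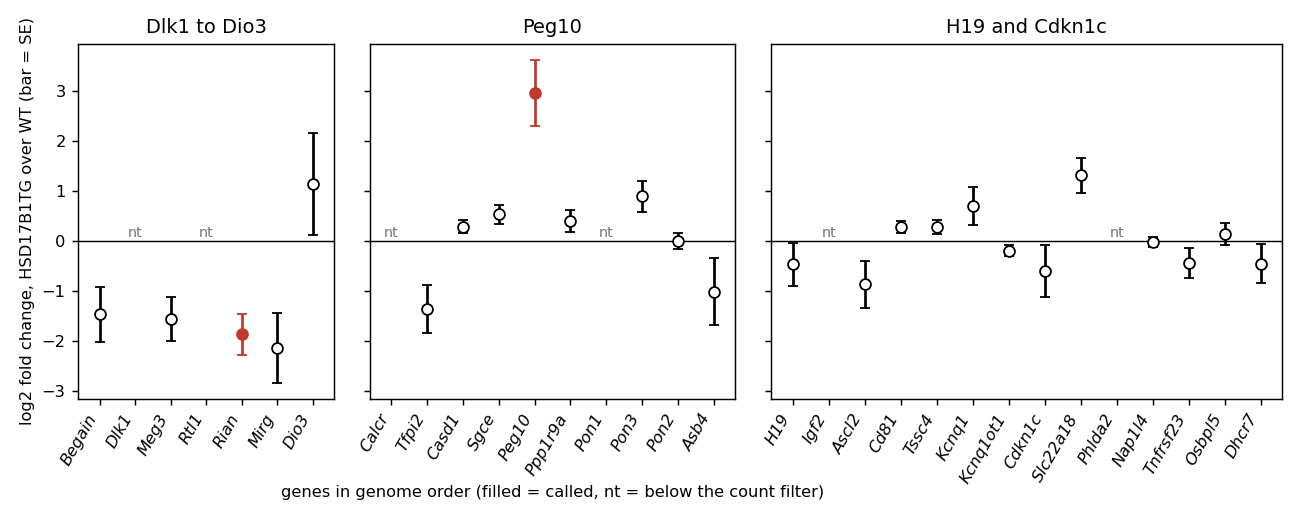
Log2 fold change (edgeR, vertical axis, bars are SE) of the genes around Meg3, Peg10 and H19 to Cdkn1c in genome order, with called genes filled in red and genes under the filter on low counts written as nt. The non-coding RNAs Meg3, Rian and Mirg lie between -1.56 and -2.13, with Rtl1 (nt) between Meg3 and Rian. Peg10 at 2.95 stands beside Sgce at 0.53.

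**Figure D4:**
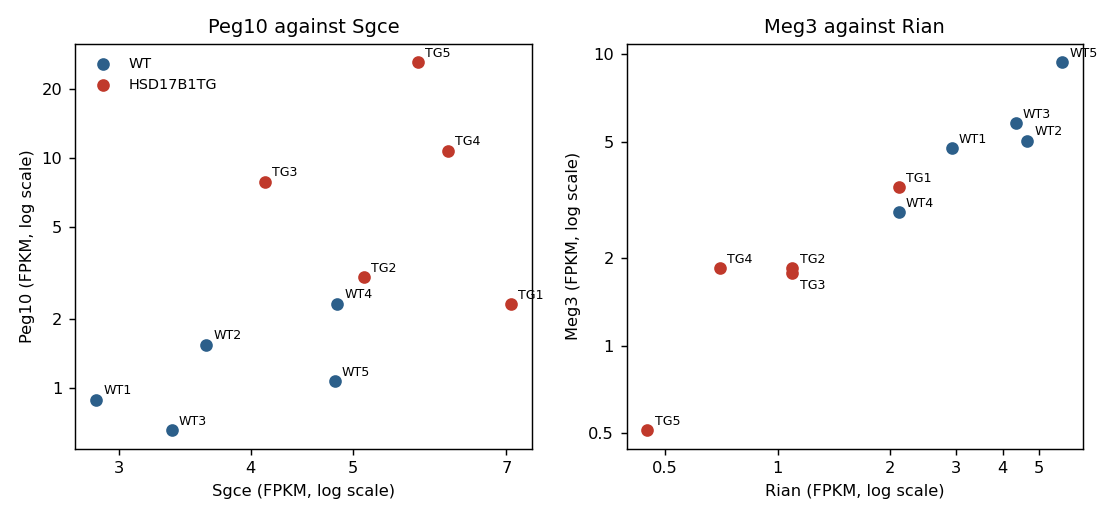
Left, Peg10 against Sgce, and right, Meg3 against Rian, in FPKM on log axes, with 1 labelled point per mouse, WT in blue and HSD17B1TG in red. Meg3 and Rian lie along 1 line in both genotypes (r = 0.96), and TG1 is level with WT4 in Peg10 while holding the highest Sgce level, 7.07 FPKM.

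The 250 bases upstream of the first RefSeq start of *Meg3*, chr12:109540746-109540995 on the plus strand, are shown with CpG in capitals because the *Meg3* level, and the levels of *Rian* and *Mirg* beside it, had the same direction. They hold 10 CpG, and the 300-base window holds 2 matches to TATAAA on either strand, a motif present in 13.6% of all windows. Both matches lie in the stretch tttatataaa, where they overlap on opposite strands.
Meg3 first start: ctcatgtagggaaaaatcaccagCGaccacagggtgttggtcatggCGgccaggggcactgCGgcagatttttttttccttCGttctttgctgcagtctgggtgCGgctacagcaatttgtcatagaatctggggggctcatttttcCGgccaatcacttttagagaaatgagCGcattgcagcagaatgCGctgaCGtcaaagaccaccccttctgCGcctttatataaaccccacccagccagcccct

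*Mest* (ENSMUSG00000051855, chr6:30723547-30748465, plus strand) encodes an enzyme of the alpha/beta hydrolase fold that is expressed from the paternal allele in growing mesoderm. It was at 2.46, 1.11, 1.62, 0.755 and 0.586 FPKM in TG1 to TG5 and at 3.37, 4.15, 8.97, 1.30 and 2.50 FPKM in WT1 to WT5. Of the HSD17B1TG mice 3 were below all WT mice, and WT4 again was the lowest WT mouse. A log2 fold change of -1.65 with an SE of 0.54 missed the threshold (edgeR, adjusted p = 0.0856), while DESeq2 called it (adjusted p = 0.0193). The unadjusted p of the two-sided exact permutation test was 0.0317, and it was 0.0556 to 0.0635 without TG2, TG4, TG5, WT1, WT2 or WT3. *Mest* was called in the fits without TG1 and without WT4. The last 912 bases of *Mest* overlap *Copg2* on the other strand, which had a log2 fold change of 0.02, and whether the counting used the strand is not given in the sources used here.

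*Cdkn1c* (ENSMUSG00000037664, chr7:143458339-143461050, minus strand) encodes the cyclin-dependent kinase inhibitor p57, a maternal brake on cell division. Its level was 8.84, 7.36, 6.07, 22.4 and 19.4 FPKM in TG1 to TG5, and 11.3, 27.6, 30.4, 4.56 and 22.8 FPKM in WT1 to WT5. The groups overlapped, with WT2, WT3 and WT5 above all HSD17B1TG mice and the lowest level of all in WT4. A log2 fold change of -0.60 with an SE of 0.53 was smaller than 2 SE (edgeR, adjusted p = 0.508). Among the other cell cycle and adaptor genes, the list of 14 tested paralogues and partners of the 10 genes held 0 called genes, with 3 at an unadjusted p under 0.05 (edgeR, against 26.1% of all genes) and a median log2 fold change of 0.16. DESeq2 called 2 of them up, *Cdkn1a* (adjusted p = 0.0203) and *Grb7* (adjusted p = 0.0469), and limma voom called 1, *Cdkn1a* (adjusted p = 0.0486). The 3 with the smallest p were *Cdkn1a*, which encodes the related inhibitor p21 (1.60 with an SE of 0.52, adjusted p = 0.0854, edgeR), the adaptor *Grb7* of the *Grb10* family (1.19 with an SE of 0.43, adjusted p = 0.111, edgeR), and the kinase *Cdk4* (-0.49 with an SE of 0.20, adjusted p = 0.152, edgeR).

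*H19* (ENSMUSG00000000031, chr7:142575529-142578143, minus strand) makes a maternal long non-coding RNA that carries miR-675 in an exon. It was at 2.86, 0.678, 0.951, 1.31 and 0.627 FPKM in TG1 to TG5 and at 1.84, 2.27, 2.24, 1.18 and 1.33 FPKM in WT1 to WT5. TG1 held the highest level of all, while TG2, TG3 and TG5 were below all WT mice. Its log2 fold change was -0.47 with an SE of 0.44 (edgeR, adjusted p = 0.534) and lay between -0.99 and -0.30 when 1 mouse was left out. *Igf2*, the paternal growth factor gene beside *H19*, had under 3 counts in 7 of 10 mice, so that the planned ratio of *H19* to *Igf2* could not be formed.

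*Plagl1* (ENSMUSG00000019817, chr10:13060504-13131694, plus strand) encodes a zinc finger transcription factor that is known to regulate other imprinted genes. It was at 3.60, 3.31, 2.39, 3.93 and 1.64 FPKM in TG1 to TG5 and at 3.79, 4.56, 3.40, 3.77 and 4.53 FPKM in WT1 to WT5. The WT mice were close together, with a coefficient of variation of 12.8%, the lowest of the 10 genes in WT. *Plagl1* had a log2 fold change of -0.44 with an SE of 0.23 (edgeR, adjusted p = 0.253). Over the 10 mice *Plagl1* had an r of 0.58 with *H19* (permutation p = 0.0758, adjusted 0.156 over 3 pairs; rho = 0.60, permutation p = 0.0744, adjusted 0.112) and of 0.19 with *Cdkn1c* (permutation p = 0.613, adjusted 0.613; rho = 0.43, permutation p = 0.22, adjusted 0.22). Without TG3 and TG5, the mice farthest from the *Plagl1* median, these were 0.15 and 0.46. The r of *Plagl1* with *H19* rested on TG5, without which it was 0.37, and its unadjusted permutation p was 0.0498 on log2(FPKM + 0.1) and 0.0469 on log2 CPM.

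*Peg3* (ENSMUSG00000002265, chr7:6703892-6730431, minus strand) encodes a paternal zinc finger protein. It was at 1.65, 1.32, 1.11, 1.79 and 0.849 FPKM in TG1 to TG5 and at 1.17, 2.86, 1.81, 1.34 and 2.38 FPKM in WT1 to WT5. The groups overlapped, and the log2 fold change was -0.52 with an SE of 0.29 (edgeR, adjusted p = 0.288). The maternal zinc finger gene *Zim1* beside it (ENSMUSG00000002266, chr7:6671269-6696450, minus strand) had 0 to 13 counts per mouse, 15 over the HSD17B1TG mice and 24 over the WT mice, and under 3 in 5 mice, so that its ratio to *Peg3* was not formed. *Usp29*, whose start lies 146 bases from that of *Peg3* on the other strand, had under 3 counts in all 10 mice. The *Peg3* upstream sequence, chr7:6730420-6730669 on the minus strand, is shown because its window was the only one among the 11 windows of 7 of the 10 genes that held GGGGCCCC, a motif recognized by *Plagl1*-type zinc fingers that 1.08% of all windows hold. The match is a description of the letters. CpG are in capitals.
Peg3 start: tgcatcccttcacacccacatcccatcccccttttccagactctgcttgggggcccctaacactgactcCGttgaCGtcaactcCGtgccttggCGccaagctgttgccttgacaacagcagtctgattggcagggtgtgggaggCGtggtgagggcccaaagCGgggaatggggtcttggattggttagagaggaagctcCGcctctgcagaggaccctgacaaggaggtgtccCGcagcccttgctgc
None of the 11 windows held GGTCA, 3 bases and TGACC, the estrogen response element, which 0.07% of all windows hold.

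*H19*, *Mest* and *Meg3* host miRNAs. The 5p strand of 1 miRNA of each host is shown with the seed (bases 2 to 8) in capitals, because host and miRNA can come from 1 transcript, and miR-1906 in an exon of *Meg3* is not shown. The gene-level libraries did not measure the mature miRNAs. The 3 seeds differ.
miR-675-5p in an exon of H19: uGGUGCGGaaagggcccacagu
miR-335-5p in an intron of Mest: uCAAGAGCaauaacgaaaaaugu
miR-770-5p in an exon of Meg3: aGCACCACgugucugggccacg

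The order of the 10 genes by level differed between the genotypes. In WT the highest mean was that of *Grb10* with 22.3 FPKM, followed by *Cdkn1c* with 19.3, *Meg3* with 5.56, *Mest* with 4.06, *Plagl1* with 4.01, *Peg3* with 1.91, *H19* with 1.77 and *Peg10* with 1.29. In HSD17B1TG *Cdkn1c* was first with 12.8 FPKM, then *Peg10* with 10.03 and *Grb10* with 7.41. In WT the ranges of neighbours in this order did not overlap between *Plagl1* and *Peg3* and between *Peg10* and *Zim1*, and in HSD17B1TG between *Grb10* and *Plagl1* and between *H19* and *Zim1*, whereas all other neighbours overlapped. *Peg10* stood 8th in WT and 2nd in HSD17B1TG, and *Grb10* went from the first place to the third.

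Some mice stood at the edge of their group in several of the genes. TG4 had the highest level of the HSD17B1TG mice in 4 of the 8 tested genes (*Cdkn1c*, *Grb10*, *Peg3* and *Plagl1*), and TG5 had the lowest in 5 (*H19*, *Meg3*, *Mest*, *Peg3* and *Plagl1*) and the highest in *Peg10*. TG1 had the highest level of the HSD17B1TG mice in 3 genes (*H19*, *Mest* and *Meg3*) and the lowest in *Peg10*. WT4 had the lowest level of the WT mice in 5 of the 8 genes (*Grb10*, *Meg3*, *Mest*, *Cdkn1c* and *H19*) and the highest in *Peg10*. Without TG1 or without WT4 4 of the 10 genes were called instead of 2, with *Mest* and *Meg3* added. Over all genes, calls rose from 367 up and 354 down to 753 and 575 without TG1 and to 888 and 651 without WT4.

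The list of stromal markers held 10 tested genes, of which 3 were called down (*Pdgfra*, *Thy1* and *Hand2*), with a median log2 fold change of -0.97 and a summed level of 501 to 1829 FPKM in HSD17B1TG and 1427 to 1811 in WT. The homeobox genes *Hoxa10* and *Hoxa11* of the uterus were called down with -2.14 and -2.36, while *Esr1*, *Pgr*, *Foxa2* and *Wnt7a* were not called. The 10 epithelial markers had a median of 1.34 with 0 called, although 7 had an unadjusted p under 0.05 (edgeR) and DESeq2 called 4 up (*Cdh1*, *Cldn4*, *Cldn7* and *Epcam*), and their sum was 751 to 3532 FPKM in HSD17B1TG and 528 to 1808 in WT. The 6 markers of natural killer and cytotoxic cells had a median of -2.99 with 3 called, and their sum was 1.59 to 6.34 FPKM in HSD17B1TG and 6.99 to 91.1 in WT. DESeq2 called 5 stromal and 4 natural killer and cytotoxic cell markers down, and limma voom 2 and 1. The median was -0.58 for 8 endothelial and 0.58 for 10 smooth muscle markers, with 0 called in either list and 4 and 0 at an unadjusted p under 0.05 (edgeR). DESeq2 called 1 endothelial marker up and 1 down, and 0 smooth muscle markers. Of 8 leucocyte markers 1 was higher (*Laptm5*, called up) and 7 were lower, with a median of -0.50 and 4 at an unadjusted p under 0.05 (edgeR), and DESeq2 also called *Cd52* and *Ptprc* down. Of 6 macrophage markers 4 were higher and 2 lower, with a median of 0.17, and 1 was called up (*Cd68*). All 4 tested neutrophil markers were higher, with a median of 1.54, 0 called and 1 at an unadjusted p under 0.05 (edgeR), and DESeq2 called 1 up (*S100a9*). The sum of the 8 listed neutrophil markers was 7.74 to 13.7 FPKM in HSD17B1TG and 0.619 to 5.10 in WT. Both tested adipocyte markers were higher, with a median of 1.79, 0 called and 1 at an unadjusted p under 0.05 (edgeR), and DESeq2 called 1 up (*Fabp4*). Medians were -0.17 for 6 skeletal muscle, 0.10 for 2 oviduct and 0.38 for 2 ovary markers, with 0 called by edgeR or DESeq2 and 0, 1 and 0 at an unadjusted p under 0.05 (edgeR). Removing 1 mouse at a time gave 0 to 4 stromal, 1 to 4 cytotoxic and 0 to 2 uterine genes called down, with 0 stromal calls without TG5, and 0 to 5 epithelial genes called up, with 5 without TG1 and 5 without WT4. *Hoxa10*, *Hoxa11* and *Laptm5* were called in 4 and *Cd68* in 3 of these 10 fits. No listed marker was at 0 counts in all mice. Of the 3 placental markers listed, none passed the filter, and their summed level was 0.0699 to 0.988 FPKM in all mice. The part of the cell composition in the levels of *Grb10*, *Meg3*, *Mest* and *Peg10* was not tested.

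Of 53 tested imprinted genes outside the 10, 23 neighbours of the 10 and 30 elsewhere in the genome, 27 were higher and 26 lower, with a median log2 fold change of 0.00, 1 called down (*Rian*) and 0 called up, and 14 at an unadjusted p under 0.05 (edgeR), a share near the 26.1% of all genes. DESeq2 called 4 down and 1 up among them. Whether each of these genes is imprinted in the adult uterus was not tested. The 3 genes elsewhere with the smallest p were *Blcap* (0.43 with an SE of 0.11, adjusted p = 0.0498, edgeR), which was higher in every HSD17B1TG mouse but under the fold threshold, *Atp10a* (-1.15 with an SE of 0.32, adjusted p = 0.0548, edgeR) and *Zdbf2* (-2.05 with an SE of 0.58, adjusted p = 0.0585, edgeR), which was lower in every HSD17B1TG mouse. The mean of *Zdbf2* was 0.0540 FPKM in HSD17B1TG and 0.226 in WT, under the FPKM threshold of a call. *Slc22a18*, the neighbour of *Cdkn1c*, named after its values were seen, had a log2 fold change of 1.31 with an SE of 0.35 (edgeR, adjusted p = 0.0517).

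For each tested member the gene of most similar profile over the 10 mice, by Pearson r of log2 CPM, was looked up among all tested genes. It was *Slc29a1* for *Meg3* (r = 0.99, rho = 0.99), *Col18a1* for *Grb10* (r = 0.98, rho = 0.92), *Mbd2* for *Peg10* (r = 0.97, rho = 0.98), *Maged2* for *Mest* (r = 0.96, rho = 0.99), *Golim4* for *H19* (r = 0.95, rho = 0.98), *Mynn* for *Peg3* (r = 0.96, rho = 0.93), *Zfp318* for *Plagl1* (r = 0.96, rho = 0.87) and *Thap11* for *Cdkn1c* (r = 0.96, rho = 0.92). These are the highest of many values and are given as a description.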

How the data were processed

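Uterine RNA of 5 HSD17B1TG and 5 WT mice was sequenced in paired ends (150 bp) on a NovaSeq instrument. The authors aligned reads with HISAT2 2.0.5 to the mouse genome with Ensembl 94 (GRCm38) and deposited the raw count of each gene per mouse, and an FPKM value. The FPKM deposited by the authors used numbers of fragments that were 0.854 to 1.00 times the total count in HSD17B1TG. In WT these were 0.991 to 1.16 times the total count, and the lowest ratio of all was that of TG5. The FPKM were thus not scaled by the total alone. The counting program is not given in the sources used here. The deposited fold changes, p-values and enrichment tables were not used. Columns of other samples numbered 0.

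The quasi-likelihood test of edgeR 4.0.16 (R 4.3.3) was run on TMM-normalized counts of the genes that filterByExpr kept, after a test on simulated data. This test reports no SE. The SE given with edgeR values is the absolute log2 fold change divided by the square root of the F statistic. FPKM were compared by two-sided exact permutation tests over 252 assignments, with 0.00794 as the smallest p, and correlations by 100000 permutations. Overlaps were taken from GENCODE M21, and sequences from RefSeq (GRCm38.p6), which held windows for 7 of the 10 genes. Alternatives used DESeq2 1.42.0 and limma 3.58.1, other filters, normalizations and thresholds, and each mouse left out. The members, gene lists and tests were chosen with earlier results of these data known. Genes named beside the 10 were partners in pairs, called genes of the imprinted and partner lists or, where none was called, the 3 with the smallest p, and the most similar genes. *Mirg*, *Slc22a18* and the other genes around *Peg10*, *Meg3* and *Mest*, and the marker genes, were named after their values were seen. Nothing says that the libraries were made from separate litters or batches, and the floor of 3 counts covers counting error only.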

Additional observations from a re-analysis of the deposited data

How the results depend on the processing

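The direction of each of the 8 tested genes was the same in all 17 alternative fits. *Grb10* kept its side of the threshold in all 17, and *Peg10* in 8. Relative to 367 genes called up and 354 down, DESeq2 called 921 up and 657 down, an adjusted p under 0.05 alone 568 up, an adjusted p under 0.1 with the same fold 791 up and 608 down, limma voom 189 down, and limma on log2(FPKM + 1) 228 down. Leaving out 1 mouse gave 38 to 888 up and 27 to 651 down. Among the 10 genes, 3 were called down with DESeq2 and 3 with an adjusted p under 0.1, and 2 with limma on log2(FPKM + 1), instead of 1. Limma voom and limma on log2(FPKM + 1) called 0 up, and leaving out 1 mouse gave 0 to 1 up and 1 to 3 down. Among the other imprinted genes, DESeq2 called 4 down and 1 up, an adjusted p under 0.1 gave 2 down and 1 up, an adjusted p under 0.05 alone gave 1 up, and leaving out 1 mouse gave 0 to 4 down and 0 to 2 up. The cause of these changes was not tested. The log2 ratio of *Peg10* to *Sgce* was 1.47 to 2.40 when 1 mouse was left out. The differences of *Dlk1* (-0.0013 to 0.0092 when 1 mouse was left out) and *Zim1* (-0.031 to 0.0058) changed sign, at levels near 0. No paired analysis was possible because the labels give no replicate numbers and the genotypes share fewer than 2 of the unexplained numbers in the titles. Depth limits what can be said of *Dlk1* and *Zim1*.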
